A study of Mus musculus with 10 samples.

Results

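Left atria of adult mice given ibrutinib were compared, across all measurable genes, with left atria of adult mice given vehicle. The comparison holds 6 of the 10 poly(A) RNA-seq libraries of the study, chosen by their titles: 3 libraries from vehicle-treated animals (CTL1, CTL2 and CTL3) and 3 from ibrutinib-treated animals (IBR1, IBR2 and IBR3). A gene entered when at least 10 reads were counted in at least 3 of these 6 libraries, which held for 14036 of 37583 gene rows. The other 4 libraries, 2 labelled untreated wild type (WT) and 2 labelled as a cardiac knockout of the kinase gene Csk (KO), appear only in a side-by-side comparison near the end. Dose, route and duration of ibrutinib, the vehicle, the strain, sex and age in weeks, and the allele, promoter or Cre line behind the knockout label could not be taken from the labels. Whether the 3 libraries of a group stem from 3 different animals is not recorded, so every p-value below measures only the spread between these libraries.

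Ibrutinib binds covalently to Bruton's tyrosine kinase, the product of Btk, and is used against B cell cancers. Atrial fibrillation is a known adverse effect of the drug, and it also binds other kinases with a cysteine at the same place, among them kinases of the Tec, Src and ErbB families. C-terminal Src kinase, the product of Csk, phosphorylates and so restrains Src family kinases. The left atrium is built of muscle cells with their own set of contractile and ion channel proteins, beside fibroblasts, endothelium, an epicardial covering layer and resident macrophages. Scarring, inflammation and altered calcium handling or conduction are the changes most often studied in fibrillating atria.

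The libraries held 15965342 to 19608171 counts on genes. CPM is a count divided by the gene counts of its library in units of 1e6, scaled by the trimmed mean of M values. Before that scaling, 3 counts equalled between 0.153 and 0.188 CPM, and the scaling factors ran from 0.942 to 1.05. The atrial label was borne by the atrial light chain Myl7 at 5309.8 to 8340.1 CPM and the atrial peptide Nppa at 3839 to 5869.9 CPM, and the ventricular light chain Myl2 stood at 0.581 to 8.17 CPM. The libraries did not separate cleanly by treatment. On the first principal component, with 44.0% of the variance, CTL2 stood at -43.8 and CTL1 at -17.2, IBR2 at 0.284, CTL3 at 10.1, IBR3 at 19.9 and IBR1 at 30.7. CTL3 thus lay among the ibrutinib libraries, IBR2 lay between the groups, and CTL2 stood farthest from the rest. Many results below turn on single libraries. Where leaving one out moved a printed list median by over 1.5 times, the median without it, or the lowest and highest over the 6 libraries left out in turn, stands beside it. No pair of libraries agreed within sampling noise (chi-square per degree of freedom of 14.5 to 44.2), so none was taken as a repeat of another.

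No gene passed an adjusted p of 0.05 in edgeR's quasi-likelihood test in either direction, that is 0% of the 14036 genes higher and 0% lower, with a smallest adjusted p of 0.515. At an unadjusted p under 0.05 stood 1315 genes (9.37%), 812 of them (5.79%) higher with ibrutinib and 503 (3.58%) lower, where an even spread of p-values gives 701.8. The sign of the difference was positive for 49% of all genes and negative for 51%. The histogram of p-values shows this surplus in its first bin. All 3 ibrutinib libraries lay above all 3 vehicle libraries for 954 genes (6.8%) and below them for 958 (6.83%), and either was true of 13.6%. The median log2 difference over all genes was -0.01, and the 10th and 90th percentiles were -0.29 and 0.44.

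**Figure D1:**
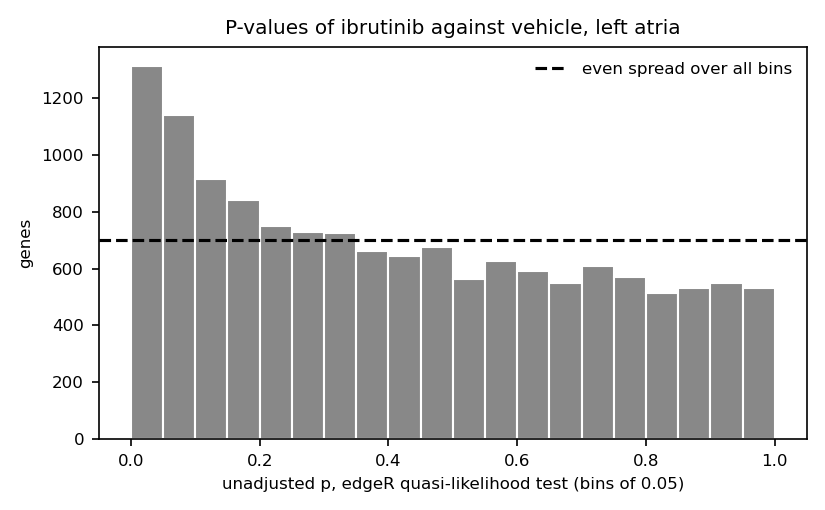
Unadjusted p-values of edgeR's quasi-likelihood test of IBR against CTL for 14036 genes, in bins of 0.05 along the x axis with the number of genes on the y axis. The dashed line marks the 701.8 genes of an even spread, and the first bin holds 1315.

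The count of called genes depended on the tool and on CTL3. DESeq2's Wald test called 22 genes higher (0.199% of the 11042 with an adjusted p) and 10 lower (0.0906%), and all 32 had groups that did not overlap. edgeR without the filter on low counts called 5 of 22011 genes, 2 higher (0.00909%) and 3 lower (0.0136%), and limma voom called 0. When CTL3 was left out, edgeR called 139 genes higher (0.99%) and 34 lower (0.242%), and 18 of these 173 genes (10.4%) were among the 32 of DESeq2 (56.2% of them). When any of the other 5 libraries was left out, edgeR called 0. CTL3 was the vehicle library nearest the ibrutinib libraries on the first principal component, so leaving it out widens the differences of genes in which it resembled them. Calls without CTL3, here and below, describe this dependence and are no separate support for a difference. Below, a gene is said to pass only for the tool or library set named, and in all other cases values are given without a verdict.

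Among genes with lower values under ibrutinib, the smallest p belonged to Myl9 (ENSMUSG00000067818), which encodes a regulatory light chain of the myosin of smooth muscle and non-muscle cells. Its 3 vehicle libraries stood at 154, 206 and 143 CPM and its ibrutinib libraries at 89.1, 89.3 and 90.03 CPM. The ibrutinib values were almost equal and lay well below every vehicle value (log2 difference -0.90, SE 0.14, DESeq2 adjusted p = 0.00023). The group means were 168 ± 33.5 and 89.5 ± 0.475 CPM (SD, n = 3 each), so the spread was far wider among the vehicle libraries. Bdh1 (ENSMUSG00000046598), a mitochondrial dehydrogenase of ketone body metabolism, stood at 44.2, 60.5 and 41.4 CPM against 24.5, 21.7 and 26.6 CPM (log2 difference -1.004, SE 0.16, DESeq2 adjusted p = 0.000356). Both genes fell in DESeq2 and in edgeR without the filter, where their adjusted p was 0.00165.

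Actc1 (ENSMUSG00000068614), the alpha-cardiac actin of the thin filament and one of the most abundant transcripts of heart muscle, was lower in each ibrutinib library. It stood at 11039, 12246 and 9859.6 CPM in CTL1 to CTL3 and at 7903, 7667 and 7163 CPM in IBR1 to IBR3 (log2 difference -0.54, SE 0.12, DESeq2 adjusted p = 0.0183). Vegfa (ENSMUSG00000023951), the growth factor of blood vessels, stood at 175, 188 and 177 CPM against 126, 123 and 131 CPM (log2 difference -0.50, SE 0.10, DESeq2 adjusted p = 0.0109). In both genes every ibrutinib library lay below every vehicle library, and both also fell in edgeR without CTL3. Hspb6, the small heat shock protein HSP20 of muscle, stood at 444, 498 and 469.8 CPM against 309, 336 and 348 CPM (log2 difference -0.51, SE 0.11). Tubb4b, a beta-tubulin, was lower by -0.47 (SE 0.11) with ibrutinib values of only 205, 207 and 212 CPM. Phlda1, an early response gene, and Tnfaip2, a gene induced by tumour necrosis factor, differed by -0.79 (SE 0.18) and -0.54 (SE 0.11). These 4 fell in DESeq2, as did Gm17029 and Gm10222, and Tubb4b, Tnfaip2 and Gm10222 also fell in edgeR without CTL3. Of the genes in this and the last paragraph, all were chosen after their values were seen, except that Actc1, Vegfa and Hspb6 also stood first in gene lists. Apart from Gm17029 and Gm10222, they were taken from genes whose groups did not overlap, so that separation was part of the choice.

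The promoters of Myl9 and Actc1 are shown because both encode contractile proteins and both hold a CArG box, the element bound by serum response factor, in the 250 bases before the start site. The box is marked in capitals, and the sequences are RefSeq's on GRCm38.p6, read 5′ to 3′ on the gene's strand. The Myl9 stretch lies at chr2:156775278-156775337 on the plus strand with the box beginning 161 bases before the start, and the Actc1 stretch at chr2:114052888-114052947 on the minus strand with the box 47 bases before it.
Myl9: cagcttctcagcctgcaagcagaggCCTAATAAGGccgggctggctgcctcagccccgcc
Actc1: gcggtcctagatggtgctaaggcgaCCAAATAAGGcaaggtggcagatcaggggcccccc
A CArG box on either strand was found in 1.62% of the 27025 genes with a promoter window, in 6 of 23 sarcomere and Z-disc genes with one (26.1%) and in 0 of 13 smooth muscle and pericyte genes. The 6 were Actc1, Myom1, Ldb3, Fhl1, Acta1 and Nebl. A match describes the letters and is no evidence of binding.

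The genes with higher values under ibrutinib described here were chosen after their values were seen. They were among the 15 of smallest p in that direction, out of named genes above a minimum mean level whose groups did not overlap. Separation of the groups was thus a condition of the choice. Sema3c (ENSMUSG00000028780), a secreted guidance molecule, stood at 37.8, 32.3 and 45.3 CPM in vehicle and 64.9, 58.5 and 73.04 CPM in ibrutinib libraries (log2 difference 0.77, SE 0.14, DESeq2 adjusted p = 0.00682). Cpxm1 (ENSMUSG00000027408), a secreted carboxypeptidase-like protein, stood at 9.82, 9.46 and 11.9 CPM against 22.7, 15.8 and 26.2 CPM (log2 difference 1.05, SE 0.20, DESeq2 adjusted p = 0.00552). Both rose in DESeq2 and in edgeR without the filter on low counts.

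Sfrp2, a secreted modulator of Wnt signalling made by fibroblasts, stood at 3.06, 2.26 and 4.23 CPM against 6.83, 9.37 and 7.19 CPM (log2 difference 1.28, SE 0.26). The lowest ibrutinib library was thus above the highest vehicle library, CTL3. Efemp1, which encodes the matrix protein fibulin-3, stood at 34.9, 30.1 and 52.1 CPM against 83.4, 60.2 and 87.7 CPM (log2 difference 0.98, SE 0.22). Enpp2, the lysophosphatidic acid-producing enzyme autotaxin, stood at 12.1, 12.3 and 17.3 CPM against 28.98, 20.5 and 31.4 CPM (log2 difference 0.95, SE 0.20). In Efemp1 and Enpp2, as in many genes below, CTL3 was the highest vehicle library and IBR2 the lowest ibrutinib library, and the gap between those 2 was narrow. Pdgfd, a platelet-derived growth factor, Lrrc17, Fam107b, Fbln5 and the metal transporter gene Slc39a8 differed by 0.90 (SE 0.18), 1.37 (0.29), 0.81 (0.17), 0.85 (0.19) and 0.78 (0.17). All of these rose in DESeq2, together with Apoe, Chrdl1, Gpc3, Hpgd, Scara5, Dcn, C1ra, H2-D1, Bst2, Cd163, Mmp9 and A730046J19Rik.

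**Figure D2:**
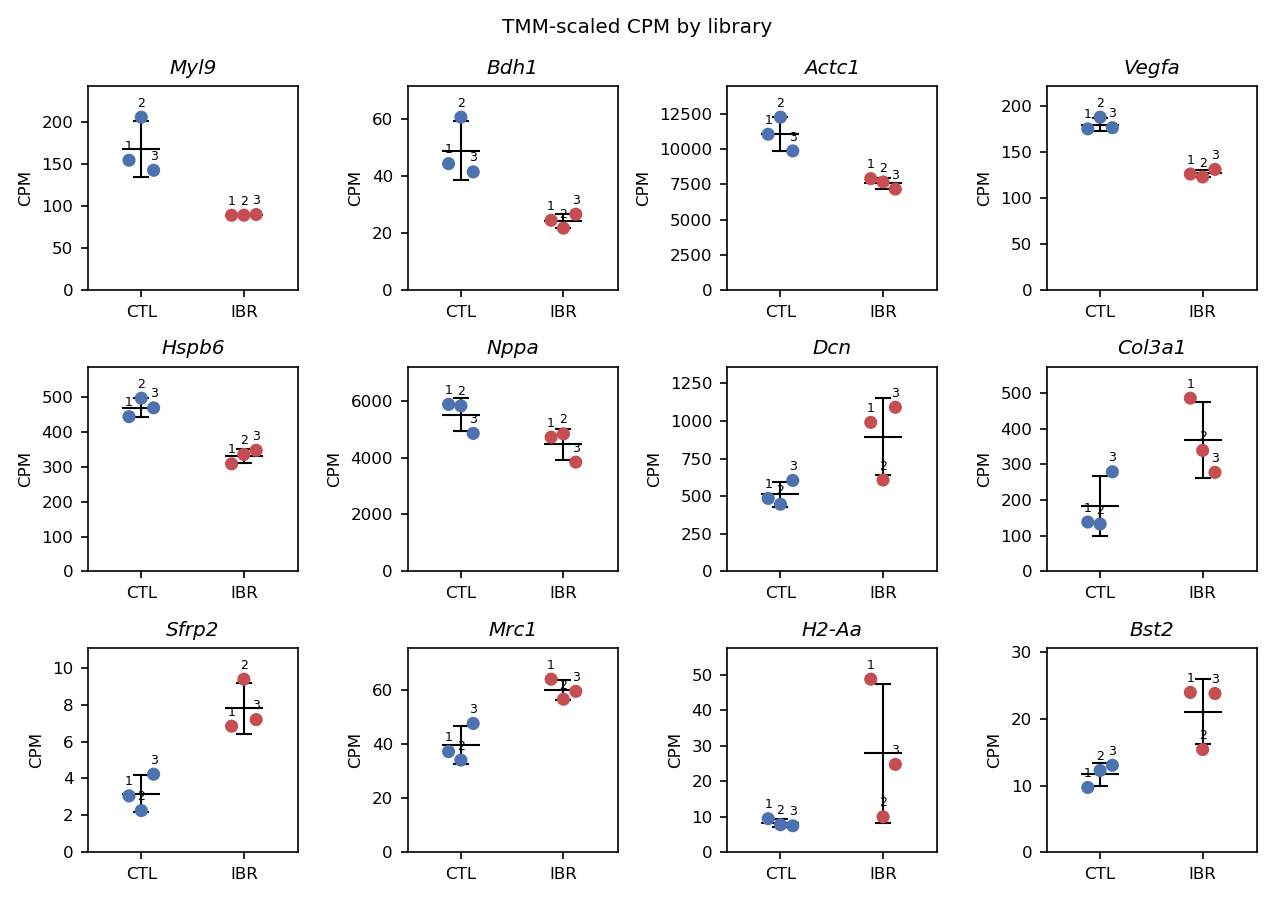
TMM-scaled CPM of 12 genes (y axes, from 0) in the 3 CTL libraries (blue) and the 3 IBR libraries (red), numbered by library, with the mean and SD of each group in black. Myl9, Bdh1, Actc1, Vegfa and Hspb6 are lower in every IBR library, while in Col3a1 the CTL3 value lies above the IBR3 value.

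Fibroblast and matrix genes had higher values with ibrutinib almost throughout, although CTL3 came close to or overlapped the ibrutinib libraries. Of 35 tested genes of the fibrillar matrix, 35 had a positive log2 difference, against 49% of all genes, with a median of 0.59 against -0.01 over all genes. This and the other lists were chosen with earlier results of these data known. Genes of a list can shift together in a library, so such counts are not counts of separate results. In 5 of the 35 all ibrutinib libraries lay above all vehicle libraries (background 6.8%). Of 19 fibroblast identity genes 18 were positive, with a median of 0.59, and in 6 all ibrutinib libraries lay above vehicle (background 6.8%). By library, the median log2 deviation of the matrix genes from their own means was -0.60 in CTL1 and -0.57 in CTL2, 0.21 in CTL3, and 0.59, 0.0047 and 0.29 in IBR1, IBR2 and IBR3. CTL3 thus exceeded IBR2, and without CTL3 the matrix median was 0.93 and edgeR called 9 of the 35 higher, against 0.99% of all genes. Both values rest on removing the highest vehicle library of this list. Since this is bulk tissue, more cells of a type and more RNA per cell cannot be told apart here or below.

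Dcn, the small proteoglycan decorin, stood at 485, 446 and 605 CPM against 990.4, 607 and 1091 CPM (log2 difference 0.81, SE 0.22, DESeq2 adjusted p = 0.0447). It was chosen after its values were seen, and its lowest ibrutinib library, IBR2, almost equalled CTL3. Lum, which encodes the related lumican, stood at 62.5, 65.6 and 73.4 CPM against 130.5, 77.3 and 126 CPM (log2 difference 0.73, SE 0.19), and Fbln5, the elastic fibre protein fibulin-5, at 18.4, 18.2 and 25.2 CPM against 39.7, 28.7 and 43.3 CPM. Both lay higher in every ibrutinib library, again least in IBR2. The main collagen genes were less clear. Col1a1, a chain of type I collagen, stood at 76.9, 67.7 and 144 CPM against 209, 118 and 129.5 CPM (log2 difference 0.66, SE 0.34). Col3a1, the chain of type III collagen, stood at 138, 133 and 279 CPM against 485, 339 and 277 CPM (log2 difference 1.001, SE 0.33), so CTL3 exceeded IBR3. Without CTL3, Col3a1 rose in edgeR, together with Col5a2, Col14a1, Fn1, Fbn1, Fbln5, Bgn, Loxl1 and Mfap4.

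Among fibroblast identity genes, Smoc2, a matricellular protein, stood at 17.05, 15.7 and 22.2 CPM against 38.01, 22.5 and 37.1 CPM (log2 difference 0.83, SE 0.22). Tcf21, a transcription factor of cardiac fibroblasts, stood at 6.28, 5.79 and 7.11 CPM against 12.7, 8.47 and 9.85 CPM (log2 difference 0.69, SE 0.20). In both the groups were apart, by a narrow margin for Smoc2, where CTL3 and IBR2 nearly met. The receptor gene Pdgfra, named after its values were seen, differed by 0.87 (SE 0.24) and rose in edgeR without CTL3.

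Genes of activated fibroblasts were split in sign. Of 21 tested, 11 were positive and 10 negative, and none had groups that did not overlap (background 13.6% in either direction). The median was 0.09, but it was 0.32 without CTL3, 0.16 without CTL2, 0.15 without IBR2, 0.024 without IBR1 and -0.016 without CTL1. Postn, the periostin gene of activated fibroblasts, stood at 14.5, 15.8 and 44.4 CPM against 51.4, 42.1 and 43.4 CPM (log2 difference 0.87, SE 0.43). Its CTL3 value lay among the ibrutinib values, far above CTL1 and CTL2, and without CTL3 Postn rose in edgeR by 1.59 on the log2 scale. Thbs2, which encodes thrombospondin-2, stood at 7.02, 5.53 and 10.6 CPM against 16.7, 9.80 and 20.1 CPM (log2 difference 1.01, SE 0.31). Acta2, the actin of smooth muscle and myofibroblasts, named after its values were seen, stood at 14.9, 34.3 and 24.5 CPM against 13.4, 17.5 and 24.6 CPM, with full overlap (log2 difference -0.40, SE 0.32).

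Of the 30 tested genes of transforming growth factor beta signalling 26 were positive (median 0.19), and without CTL1 or IBR3 the median was 0.10. Tgfbi, a matrix protein induced by that factor, stood at 22.7, 18.9 and 26.02 CPM against 57.5, 28.2 and 41.04 CPM (log2 difference 0.90, SE 0.24). It was the only list member with groups that did not overlap (background 13.6% in either direction). Bmp4, a ligand of the same family, differed by 1.15 (SE 0.40), but IBR2 at 3.20 CPM lay below CTL3 at 3.27 CPM. Of 23 metalloproteinases and inhibitors 14 were positive and 9 negative (median 0.34). Mmp9, gelatinase B, stood at 7.39, 4.79 and 5.81 CPM against 13.5, 9.53 and 11.2 CPM (log2 difference 0.92, SE 0.21, DESeq2 adjusted p = 0.0499), and the membrane-bound collagenase gene Mmp14 at 23.9, 23.8 and 32.2 CPM against 44.96, 35.2 and 35.7 CPM (log2 difference 0.53, SE 0.16). Both were higher in every ibrutinib library.

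Of 21 basement membrane collagens and laminins 19 were positive (median 0.35, or 0.21 without CTL2). Lamb1, a laminin beta chain, stood at 84.4, 69.6 and 105 CPM against 126, 114 and 125 CPM (log2 difference 0.50, SE 0.15), and Col4a6, a chain of type IV collagen, at 10.5, 6.79 and 11.2 CPM against 21.5, 11.9 and 17.7 CPM (log2 difference 0.84, SE 0.25). In both every ibrutinib library was above every vehicle library, with IBR2 closest to CTL3, and Lamb1 rose in edgeR without CTL3.

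Markers of the epicardium and of mesothelium, the covering layer of the heart, had higher values with ibrutinib. All 15 tested were positive, the median was 0.72, and in 5 every ibrutinib library lay above every vehicle library (background 6.8%). Gpm6a, a membrane glycoprotein of mesothelium, stood at 54.5, 54.01 and 89.1 CPM against 117, 92.1 and 127 CPM (log2 difference 0.77, SE 0.21), and the epithelial keratin gene Krt8 at 6.18, 5.79 and 8.35 CPM against 12.6, 9.80 and 10.4 CPM (log2 difference 0.69, SE 0.20). Upk3b, a uroplakin of mesothelium, stood at 77.9, 64.1 and 134 CPM against 169, 115 and 165 CPM (log2 difference 0.71, SE 0.28), where CTL3 exceeded IBR2. The summed level of the 15 markers was 824 and 649 CPM in CTL1 and CTL2, 1434 CPM in CTL3, and 2156, 1188 and 1723 CPM in IBR1, IBR2 and IBR3. The sum thus overlapped between groups through CTL3 and IBR2. Without CTL3 the median was 1.05 and Gpm6a, Upk3b, Aldh1a2, Lrrn4 and Tbx18 rose in edgeR.

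**Figure D3:**
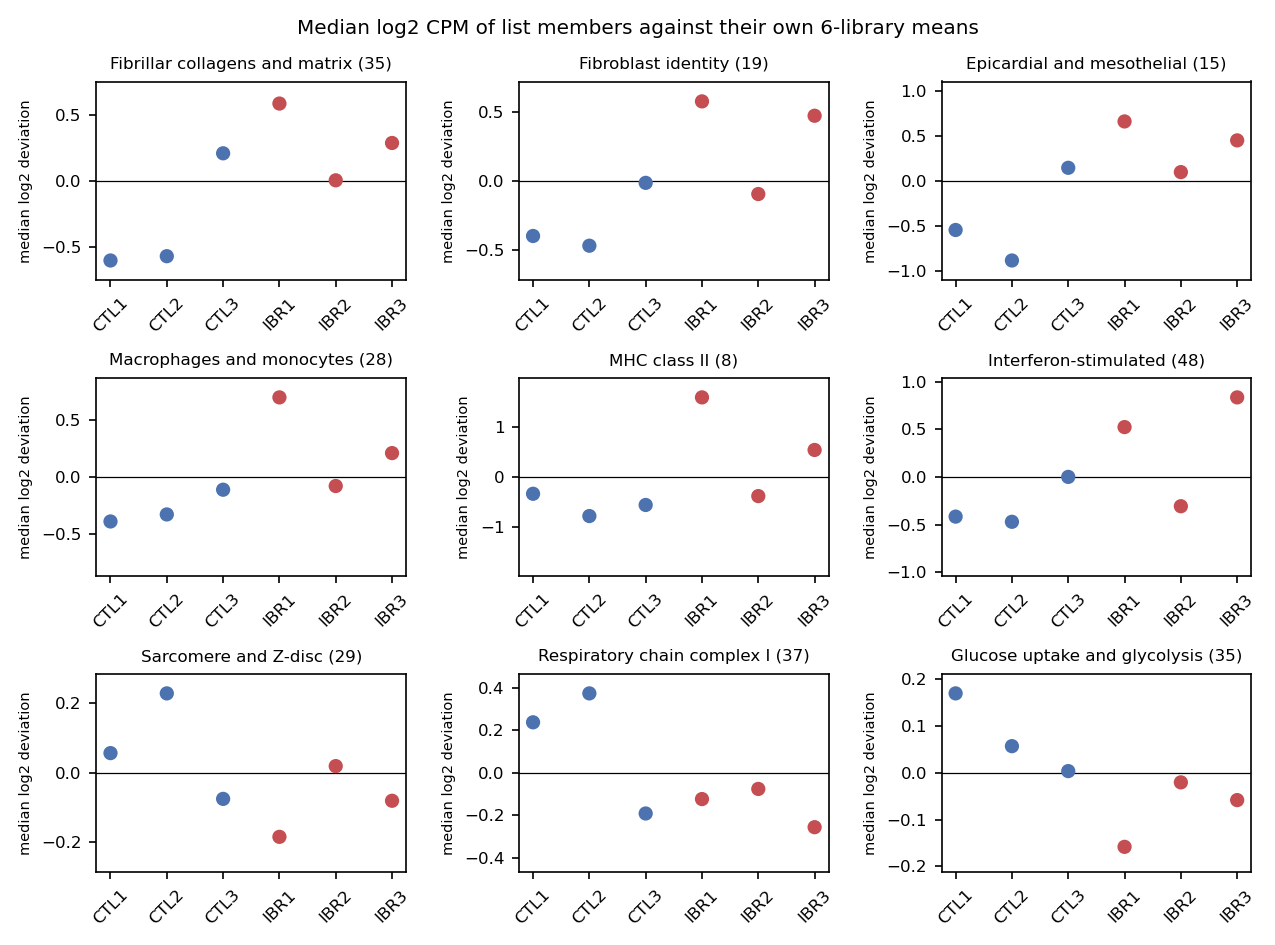
For 9 gene lists, the median over tested members of each member's log2 CPM minus its own mean over the 6 libraries (y axis), by library (x axis; CTL blue, IBR red; numbers of genes in brackets). CTL3 lies above IBR2 for matrix, fibroblast, epicardial and interferon genes, and IBR1 is the highest library for MHC class II at 1.59.

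Macrophage markers were higher with ibrutinib. Of 28 tested, 27 were positive (median 0.56), and in 9 every ibrutinib library lay above every vehicle library (background 6.8%). The epicardial list, with 5 of 15, and the fibroblast identity list, with 6 of 19, had similar shares. The only member with a negative difference was Lgals3 at -0.28. Cd163, the haemoglobin scavenger receptor of resident macrophages, stood at 19.4, 12.1 and 18.9 CPM against 35.4, 26.5 and 29.97 CPM (log2 difference 0.86, SE 0.19, DESeq2 adjusted p = 0.023). Mrc1, the mannose receptor of the same cells, stood at 37.2, 34.03 and 47.5 CPM against 63.8, 56.5 and 59.4 CPM (log2 difference 0.60, SE 0.14), with the groups apart, and rose in edgeR without CTL3. The lysozyme gene Lyz2 of macrophages and neutrophils stood at 97.8, 102 and 92.7 CPM against 184, 98.1 and 119 CPM (log2 difference 0.45, SE 0.21). The summed level of the 28 markers was 488 to 574 CPM in the vehicle and 610 to 884 CPM in the ibrutinib libraries, so that the sums did not overlap. Without IBR1, the highest library, the median was 0.31. Arg1, Chil3, Itgax, Ly6c2, Plac8 and Spp1, most of them genes of recruited or activated cells, did not reach the filter on low counts.

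MHC class II genes, which present antigen to helper T cells, had the largest median of all lists, but mainly through IBR1 and IBR3. All 8 tested members were positive, with a median of 1.39, and 4 lay above vehicle in every ibrutinib library (background 6.8%). H2-DMb1, a chaperone of peptide loading, stood at 1.21, 0.400 and 1.02 CPM against 6.95, 1.76 and 2.20 CPM (log2 difference 2.01, SE 0.60), and the lysosomal thiol reductase gene Ifi30 at 5.70, 4.20 and 7.17 CPM against 11.7, 7.88 and 8.52 CPM (log2 difference 0.71, SE 0.24). H2-Aa, an alpha chain, and Cd74, the invariant chain, were named after their values were seen. H2-Aa stood at 9.50, 7.79 and 7.51 CPM against 48.8, 10.01 and 24.8 CPM (log2 difference 1.75, SE 0.54) and Cd74 at 21.2, 13.3 and 15.97 CPM against 79.9, 19.7 and 40.8 CPM (log2 difference 1.47, SE 0.50). IBR1 was highest in both, and IBR2 stood inside or close to the vehicle range. Without IBR1 the list median was 0.73, and with no filter on low counts, which admits further members, it was 0.92. The H2 genes have close relatives in the MHC region, so their reads can be lost or split in counting.

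Of 19 tested MHC class I and antigen processing genes, 19 were positive (median 0.34), and 6 lay above vehicle in every ibrutinib library (background 6.8%). H2-D1, a classical class I heavy chain, stood at 185, 156 and 218 CPM against 371, 234 and 308 CPM (log2 difference 0.71, SE 0.18, DESeq2 adjusted p = 0.0499). B2m, its light chain, stood at 138, 141 and 176 CPM against 291, 179.9 and 275 CPM (log2 difference 0.71, SE 0.19). In both genes IBR2 lay just above CTL3, the highest vehicle library.

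Interferon-stimulated genes were higher in IBR1 and IBR3 but not in IBR2. Of 48 tested, 45 were positive with a median of 0.73, yet only 3 (Bst2, Ifi44 and Parp9) had groups that did not overlap, near the 6.8% of all genes. By library the median deviation was -0.42, -0.47 and 0.00047 in CTL1, CTL2 and CTL3 and 0.52, -0.31 and 0.83 in IBR1, IBR2 and IBR3, so IBR2 lay below CTL3. Bst2, the antiviral membrane protein tetherin, stood at 9.71, 12.3 and 13.04 CPM against 23.9, 15.4 and 23.8 CPM (log2 difference 0.85, SE 0.20, DESeq2 adjusted p = 0.0499). Ifi44 stood at 1.43, 0.932 and 1.69 CPM against 3.62, 2.08 and 7.30 CPM (log2 difference 1.66, SE 0.46). Without IBR3 the list median was 0.47.

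The promoters of several of these genes are shown as a description of the list. The core of the interferon-stimulated response element, GAAANNGAAA on either strand, was found in the 250 bases before the start of 19 of the 33 list genes with a RefSeq window (57.6%), against 3.46% of all 27025 genes. The members were listed as interferon-stimulated genes, so this share is a property of the list and no result of the drug comparison. Matches that overlap, as in Bst2 and Isg15, were joined, and capitals mark them. The CTGATTGG letters of the Y box, one of the elements of class II promoters, were found in 2 of 5 class II genes, H2-Aa and H2-Eb1, against 4.43% of all genes. The stretches lie, on GRCm38.p6 and each read on its gene's strand, at chr8:71537562-71537627 (Bst2, minus), chr4:156200850-156200921 (Isg15, minus), chr11:58199497-58199555 (Igtp, plus), chr19:34640760-34640838 (Ifit1, plus) and chr17:34287842-34287899 (H2-Aa, minus).
Bst2: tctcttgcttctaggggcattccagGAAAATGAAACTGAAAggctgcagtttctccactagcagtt
Isg15: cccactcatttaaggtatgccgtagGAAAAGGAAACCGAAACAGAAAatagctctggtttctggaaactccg
Igtp: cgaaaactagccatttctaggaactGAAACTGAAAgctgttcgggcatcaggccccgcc
Ifit1: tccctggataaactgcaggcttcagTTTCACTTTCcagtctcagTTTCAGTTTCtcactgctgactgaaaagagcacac
H2-Aa: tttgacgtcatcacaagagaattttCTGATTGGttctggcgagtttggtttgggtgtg
Ifit1 carries the element on the opposite strand, where it reads as its reverse complement. Of the genes shown, Bst2 and H2-Aa had groups that did not overlap. Igtp stood at 7.76, 6.66 and 12.02 CPM against 20.02, 10.9 and 21.3 CPM, with CTL3 above IBR2, Isg15 at 2.53, 2.13 and 2.37 CPM against 3.62, 2.13 and 8.70 CPM, and Ifit1 at 2.80, 2.20 and 4.29 CPM against 5.29, 3.73 and 15.9 CPM. These 3 were picked for their sequence.

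Complement and coagulation genes were positive in 24 of 28 cases (median 0.46). C1ra, a serine protease that starts the classical pathway, stood at 18.4, 13.1 and 23.4 CPM against 43.95, 25.5 and 45.5 CPM (log2 difference 1.06, SE 0.27, DESeq2 adjusted p = 0.0221). Cytokines, chemokines and their receptors were mixed, with 30 positive and 14 negative of 44 and a median of 0.30, which was 0.14 without IBR3 and 0.18 without CTL1. Il6, the interleukin 6 gene, stood at 6.12, 1.33 and 1.69 CPM against 0.356, 0.479 and 1.91 CPM (log2 difference -1.75, SE 0.78), with IBR3 inside the vehicle range. Ccl19 and Ccl8, chemokines of lymphocyte and monocyte traffic, differed by 1.49 (SE 0.46) and 0.92 (SE 0.30), with all ibrutinib libraries above vehicle at levels of at most 4.17 CPM.

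Lymphocyte and granulocyte genes were scarce. None of 21 T and NK cell markers passed the filter on low counts, with at most 16 counts of any in any library. Of 17 B and plasma cell markers in the files 8 were tested, with a median of 0.18 that was 0.07 without IBR1, and Blk, a B cell Src family kinase, stood at 2.27, 3.80 and 2.99 CPM against 2.20, 2.02 and 1.62 CPM (log2 difference -0.62, SE 0.29). The 9 neutrophil and mast cell genes had a median of -0.04, from -0.30 without IBR1 to 0.35 without CTL2. The summed level of the 10 red cell and platelet genes was 211, 2267 and 463 CPM in CTL1 to CTL3 and 1430, 442 and 1153 CPM in IBR1 to IBR3, so these values varied within each group by more than the groups differed.

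Of 28 endothelial and endocardial genes 19 were positive (median 0.31), and the median was 0.54 without CTL3, 0.18 without CTL1 and 0.20 without IBR1. Angpt2, angiopoietin-2, a vascular destabilising ligand, stood at 3.59, 4.40 and 3.61 CPM against 5.05, 6.87 and 9.27 CPM (log2 difference 0.87, SE 0.25), all above vehicle. Vegfa, above, was the member with the largest negative difference. Without CTL3, Kdr, the main receptor of its product, rose together with Tek, Vwf and Npr3 in edgeR. Smooth muscle and pericyte genes had a median of 0.02, with 9 positive and 9 negative of 18, and it ran from -0.026 without IBR3 to 0.077 without IBR2. Within them Abcc9, a subunit of ATP-sensitive potassium channels of mural cells and muscle, stood at 28.6, 24.04 and 32.7 CPM against 47.8, 33.8 and 48.2 CPM (log2 difference 0.60, SE 0.17). Pdgfrb, the pericyte receptor gene, differed by 0.70 (SE 0.26), with CTL3 above IBR2.

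Most genes of the contractile apparatus had slightly lower values with ibrutinib. Of 29 sarcomere and Z-disc genes, 23 were negative (median -0.17), and in 4 every ibrutinib library was below every vehicle library (background 6.83%). The median was -0.06 without CTL2, -0.11 without IBR1 and -0.26 without CTL3. After Actc1, the smallest p belonged to Mybphl, a myosin-binding protein of atrial muscle, at 1353, 1261 and 1274 CPM against 1074, 1130.1 and 1011 CPM (log2 difference -0.27, SE 0.11). Of 18 atrial muscle identity genes 14 were negative (median -0.09), and the median was -0.21 without IBR2, -0.16 without CTL3, -0.14 without CTL2 and -0.057 without IBR1. Myl7 stood at 8340.1, 7632 and 5338 CPM against 6075, 6111 and 5309.8 CPM (log2 difference -0.28, SE 0.17), where CTL3 was as low as IBR3. Of 12 ventricular genes 7 were negative. Their median of -0.07 gave no stable direction, at 0.0069 without CTL3, -0.0069 without IBR1, -0.0016 without IBR3, -0.13 without CTL1 and -0.20 without IBR2. Myl3, a ventricular and slow-muscle light chain, stood at 160.4, 156 and 91.3 CPM against 97.2, 100.3 and 83.8 CPM (log2 difference -0.54, SE 0.20) and fell in edgeR without CTL3, while Myl2, at low level, stood at 0.581, 2.93 and 0.621 CPM against 2.79, 4.10 and 8.17 CPM (log2 difference 1.91, SE 0.67). Ckm, the muscle creatine kinase gene, stood at 695, 647 and 550.1 CPM against 474, 514 and 456 CPM (log2 difference -0.39, SE 0.12), with the groups apart.

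Markers of other cell types did not all lie on one side. The fibroblast, epicardial, macrophage and endothelial medians were positive, as given above. The smooth muscle median was near 0, the neutrophil, neural and adipocyte medians were slightly negative and changed size or sign without single libraries, and the 7 skeletal muscle genes had a median of -0.35. The summed level of the 19 fibroblast identity genes was 4438 to 5618 CPM in vehicle and 5466 to 7691 CPM in ibrutinib libraries, and that of the 28 endothelial genes 3730 to 4584 CPM and 4311 to 4798 CPM, beside the macrophage and epicardial sums above. All 21 T and NK cell markers stayed below the filter. The part of these markers in the lower muscle values, and in the mitochondrial and glycolytic values below, was not tested.

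The natriuretic peptides, hormones that stretched atrial muscle releases, had lower values. Nppa stood at 5869.9, 5818 and 4849 CPM against 4718, 4833 and 3839 CPM (log2 difference -0.30, SE 0.14), where the groups did not overlap but IBR2 and CTL3 nearly met. Nppb stood at 388, 996 and 301 CPM against 233, 187 and 328 CPM (log2 difference -1.17, SE 0.48), where the difference leans on CTL2 and IBR3 exceeded CTL3. Npr3, the clearance receptor, which endocardium also makes, stood at 149, 176 and 293 CPM against 306, 266 and 351 CPM (log2 difference 0.58, SE 0.24), and rose in edgeR without CTL3.

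Genes of the action potential and of calcium cycling lay close to 0. Of 27 potassium channel genes 15 were positive (median 0.04), of 13 sodium and pacemaker channel genes 6 (median -0.05) and of 31 calcium channel and cycling genes 11 (median -0.10). The potassium channel median changed sign with either other filter on low counts and the sodium channel median in limma voom. Without single libraries the potassium median ran from -0.050 (IBR3 left out) to 0.11 (IBR1), the sodium median from -0.13 (IBR2) to -0.023 (IBR1), and the calcium median was -0.058 without CTL1 and -0.019 without CTL2. Kcna5, the channel of the atrial ultrarapid potassium current, stood at 6.70, 9.32 and 6.32 CPM against 8.55, 7.35 and 11.9 CPM (log2 difference 0.32, SE 0.23), with overlap. Kcnh2, which encodes the rapid delayed rectifier, stood at 381, 308 and 372 CPM against 256, 321 and 278 CPM (log2 difference -0.31, SE 0.13), also with overlap. Scn7a, a sodium channel of non-muscle cells, differed by 0.74 (SE 0.22), with CTL3 above IBR2.

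Cacna2d2, an auxiliary calcium channel subunit, stood at 28.8, 33.2 and 30.6 CPM against 25.4, 22.3 and 18.6 CPM (log2 difference -0.48, SE 0.14), below vehicle in each library. Itpr1, the inositol trisphosphate receptor that releases stored calcium, stood at 52.7, 54.1 and 66.9 CPM against 74.2, 72.97 and 75.7 CPM (log2 difference 0.36, SE 0.12), above vehicle in each library. The main calcium channel and pump genes showed no such separation. Cacna1c, the L-type channel, differed by 0.01 (SE 0.14), Ryr2, the release channel of the sarcoplasmic reticulum, by 0.14 (SE 0.15) and Atp2a2, its calcium pump, by -0.06 (SE 0.12). Of 19 connexin and intercalated disc genes none had groups that did not overlap (background 13.6% in either direction). Their median was -0.00096, from -0.031 without IBR2 to 0.058 without IBR1. Gja5, the atrial connexin 40, stood at 307, 193 and 256 CPM against 239.6, 341 and 141 CPM (log2 difference -0.07, SE 0.31), and the desmosomal genes Dsg2 and Jup differed by 0.20 (SE 0.12) and 0.17 (SE 0.13).

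Atrial transcription factors and genes at fibrillation loci had a median of 0.12, and 5 of 25 lay above vehicle in every ibrutinib library (background 6.8%). Syne2, a nuclear envelope anchor, stood at 70.5, 56.3 and 76.6 CPM against 92.5, 97.95 and 98.3 CPM (log2 difference 0.51, SE 0.13). Hey1, a Notch target, had 20.2, 21.4 and 25.1 CPM against 36.2, 24.5 and 38.9 CPM (log2 difference 0.58, SE 0.18), with CTL3 above IBR2. Among 20 autonomic and hormone receptor genes (median 0.12, or 0.049 without CTL2), Ednrb, an endothelin receptor, stood at 41.5, 53.9 and 69.4 CPM against 81.2, 72.4 and 76.8 CPM (log2 difference 0.48, SE 0.17). It lay above vehicle in each library and rose in edgeR without CTL3.

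**Figure D4:**
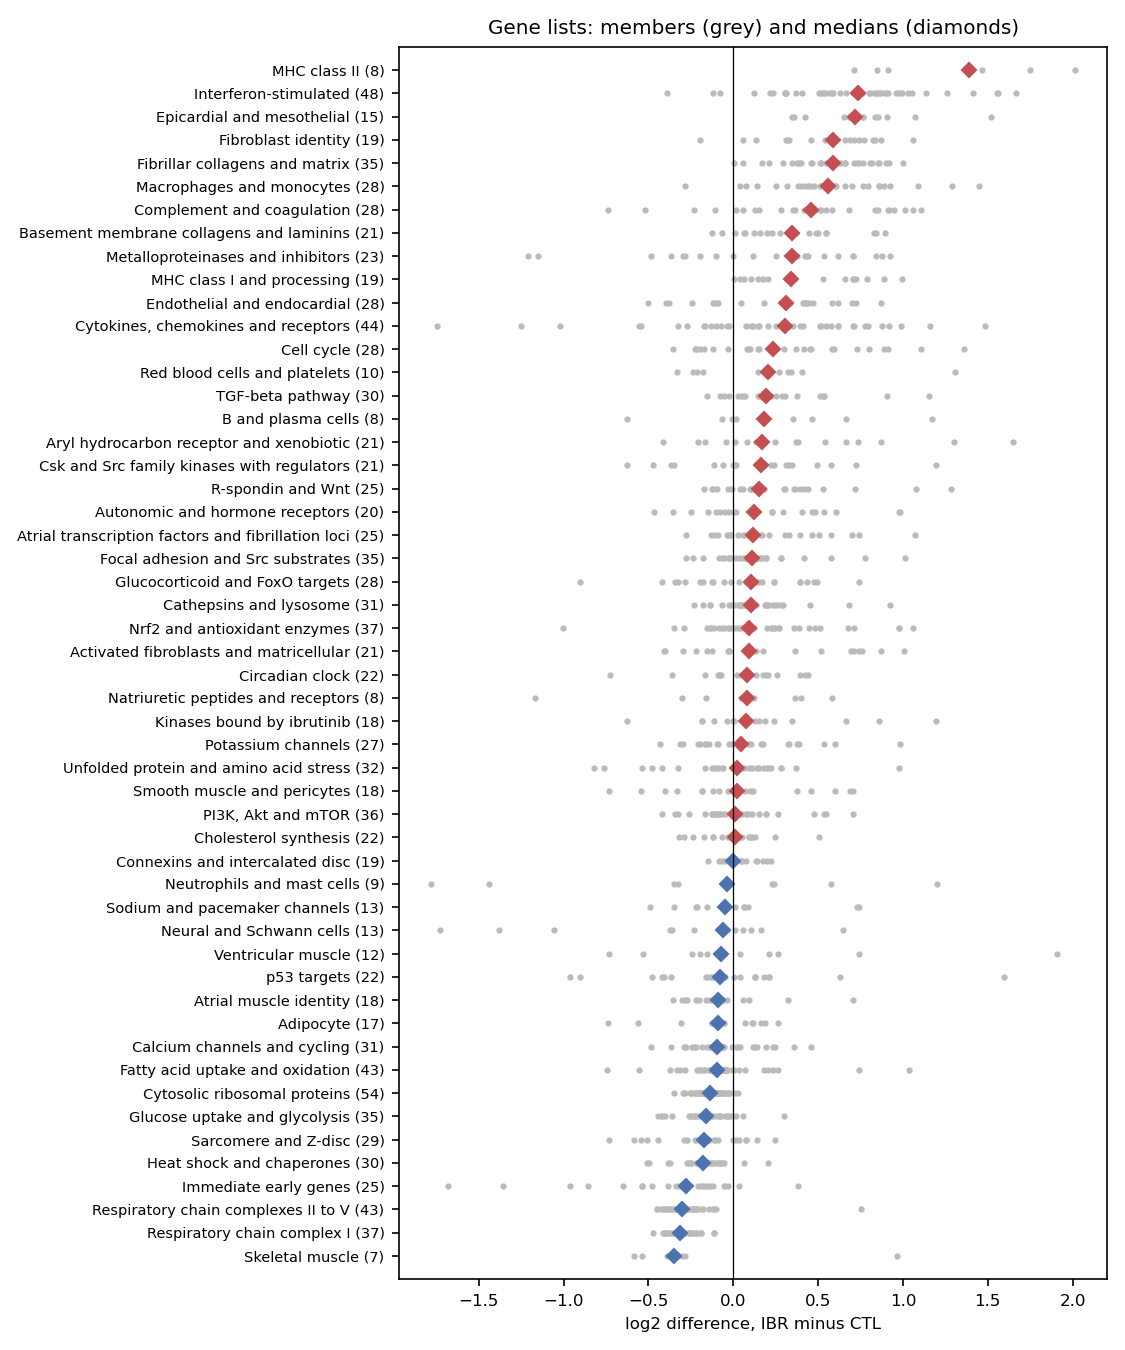
Log2 difference IBR minus CTL (x axis) of every tested member (grey points) and the median (diamond; red above 0, blue below) of each gene list with at least 4 tested members (one line each, with the number of members in brackets). MHC class II stands highest at 1.39, and the respiratory chain lists lie at -0.32 and -0.30 with nearly all members below 0.

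Nuclear genes of the respiratory chain had lower values almost without exception. Of 37 complex I genes all 37 were negative, with differences from -0.47 to -0.11 and a median of -0.32, and of 43 genes of complexes II to V 42 were negative, with a median of -0.30. In 5 and 7 of them respectively every ibrutinib library was below every vehicle library (background 6.83%). By library, complex I deviated by 0.24 and 0.37 in CTL1 and CTL2, and by -0.19 in CTL3 and -0.12, -0.08 and -0.26 in IBR1 to IBR3, so CTL3 lay within the ibrutinib range. Ndufb10, an accessory subunit, stood at 508, 491 and 365 CPM against 355, 343 and 329 CPM (log2 difference -0.41, SE 0.14), and Ndufa12 at 213, 249 and 187 CPM against 174, 174 and 159 CPM (log2 difference -0.36, SE 0.12). Atp5g1, a gene of the ATP synthase rotor ring, stood at 1274, 1238 and 1006 CPM against 913, 963 and 763 CPM (log2 difference -0.41, SE 0.14), and Atp5l, another subunit, at 217, 228 and 154 CPM against 154, 147 and 138 CPM (log2 difference -0.45, SE 0.15). In all 4 the groups were apart, although in Atp5l CTL3 and IBR1 almost met. Without CTL3, edgeR called 4 complex I genes and 5 of complexes II to V lower, against 0.242% of all genes, while without CTL2 the medians were -0.19 and -0.20.

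Glucose uptake and glycolysis differed little in size but had the most members below the vehicle range of any list. Of 35 genes 32 were negative with a median of -0.16, or -0.11 without CTL1, and 11 did not overlap (background 6.83%). Pgam1, a phosphoglycerate mutase, stood at 36.3, 41.1 and 35.96 CPM against 26.3, 26.3 and 30.6 CPM (log2 difference -0.44, SE 0.12), and Eno3, the muscle enolase, at 1328, 1380.0 and 1137 CPM against 944, 998 and 919 CPM (log2 difference -0.43, SE 0.12). Of 43 genes of fatty acid uptake and oxidation 34 were negative (median -0.10, or -0.065 without CTL2) and 5 lay below vehicle in every ibrutinib library (background 6.83%). Ppargc1b, a coactivator of mitochondrial genes, stood at 35.05, 32.2 and 29.6 CPM against 24.6, 23.2 and 27.1 CPM (log2 difference -0.37, SE 0.12), and its partner Esrra, a nuclear receptor, at 240.2, 286 and 213 CPM against 184, 226 and 183 CPM (log2 difference -0.32, SE 0.14). Of 54 cytosolic ribosomal protein genes 52 were negative, and in none were the groups apart (background 13.6% in either direction). Their median of -0.14 was -0.28 without CTL3, -0.21 without IBR1, -0.084 without CTL1 and -0.024 without CTL2. These lists kept their sign under every scaling tried.

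Stress genes gave small negative differences. Of 30 heat shock and chaperone genes 28 were negative with a median of -0.18, or -0.07 without CTL2 and -0.28 without CTL3. Dnaja4, a co-chaperone, stood at 116, 141 and 114 CPM against 91.2, 112 and 107 CPM (log2 difference -0.26, SE 0.13). Of 25 immediate early genes 23 were negative (median -0.28), but none had separated groups (background 13.6% in either direction). Ier2 stood at 35.5, 20.8 and 27.5 CPM against 16.9, 20.8 and 22.6 CPM (log2 difference -0.48, SE 0.20), and Fos, named after its values were seen, at 184, 32.03 and 84.3 CPM against 20.1, 36.9 and 36.9 CPM (log2 difference -1.68, SE 0.65). The spread among vehicle libraries of Fos was wide, and the list median was -0.11 without IBR1 and -0.53 without IBR3.

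Genes of the unfolded protein and amino acid response had a median of 0.02, with 5 of 32 below vehicle in every ibrutinib library (background 6.83%). The median gave no stable direction, from -0.073 without IBR1 and -0.0059 without CTL3 to 0.083 without IBR3. Atf5, a transcription factor of that response, stood at 86.7, 84.4 and 90.99 CPM against 68.4, 68.02 and 72.6 CPM (log2 difference -0.33, SE 0.09), and Mthfd2, a mitochondrial folate enzyme, at 10.98, 7.86 and 13.8 CPM against 5.11, 6.39 and 7.77 CPM (log2 difference -0.76, SE 0.24). The 22 targets of p53 had a median of -0.08, from -0.13 without IBR3 to 0.010 without CTL2. Cell cycle genes were positive in 20 of 28 cases at low levels (median 0.24, between 0.09 without CTL2 and 0.48 without CTL3), and Top2a, a topoisomerase of dividing cells, stood at 0.370, 0.599 and 0.903 CPM against 1.13, 2.45 and 1.22 CPM (log2 difference 1.36, SE 0.47). The clock list (22 genes) had a median of 0.08, from -0.010 without IBR3 to 0.18 without CTL3. Its member Nr1d1, the repressor REV-ERB alpha, stood at 182, 203 and 201 CPM against 294, 259 and 232 CPM (log2 difference 0.42, SE 0.12). Nr1d1 was the only member above vehicle in each ibrutinib library (background 6.8%). Tsc22d3, a target of the glucocorticoid receptor, stood at 121, 92.8 and 108 CPM against 148, 132 and 142 CPM (log2 difference 0.39, SE 0.12).

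Among antioxidant genes (37 tested, median 0.09, or 0.16 without CTL3 or IBR2), Gsta3, a glutathione transferase, stood at 5.70, 5.33 and 5.36 CPM against 15.6, 6.13 and 12.5 CPM (log2 difference 1.06, SE 0.31), highest in IBR1. The 21 genes of the aryl hydrocarbon receptor and of drug metabolism had a median of 0.17, which was 0.35 without CTL3 and 0.29 without IBR2. Ugt1a6a, a conjugating enzyme, stood at 0.422, 0.533 and 0.847 CPM against 2.14, 1.01 and 1.33 CPM (log2 difference 1.30, SE 0.43). In both genes every ibrutinib library was above vehicle. Of 25 R-spondin and Wnt genes (median 0.15, between 0.01 without CTL2 and 0.36 without CTL3), Sfrp2 was described above and Rspo1, a Wnt-enhancing ligand of epicardium, differed by 0.72 (SE 0.24). In Rspo1 CTL3 lay above IBR2.

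Among kinases that ibrutinib binds, and the Csk and Src family, the medians were small but single members differed. Btk, the intended target, was barely expressed, at 0.950, 0.599 and 0.903 CPM against 1.48, 1.12 and 1.33 CPM (log2 difference 0.66, SE 0.35). These values lie above the 0.153 to 0.188 CPM of 3 counts before scaling, and each ibrutinib value lay above each vehicle value. Csk (ENSMUSG00000032312) stood at 23.2, 22.2 and 22.5 CPM against 25.7, 21.4 and 20.8 CPM, a log2 difference of 0.00080 with an SE of 0.12, and Src at 13.6, 10.1 and 14.7 CPM against 17.6, 17.3 and 13.9 CPM (log2 difference 0.35, SE 0.18). Egfr, the epidermal growth factor receptor, stood at 6.33, 6.06 and 9.20 CPM against 14.3, 10.9 and 14.1 CPM (log2 difference 0.86, SE 0.20), with the groups apart, and rose in edgeR without CTL3. Frk, a Src-related kinase, stood at 1.37, 1.07 and 1.64 CPM against 3.39, 3.57 and 2.43 CPM (log2 difference 1.19, SE 0.30), and Dok1, an adaptor that Src family and Tec kinases phosphorylate, at 2.48, 1.93 and 3.73 CPM against 4.87, 3.99 and 4.64 CPM (log2 difference 0.72, SE 0.28). Of 18 kinases bound by ibrutinib 13 were positive, with differences from -0.62 to 1.19. In 4 of them every ibrutinib library lay above vehicle (background 6.8%) and in 1 below (background 6.83%). Their median of 0.07 was 0.17 without CTL1, 0.16 without CTL3, 0.12 without IBR1 and 0.11 without IBR2. Of 21 Src family genes and regulators 15 were positive (median 0.16, or 0.09 without CTL2 and 0.10 without IBR1). Of these 21, 4 lay above vehicle in every ibrutinib library (background 6.8%) and 1 below (background 6.83%). Both lists share members, Frk and Blk among them, so their counts are not separate. Transcript level says nothing of kinase activity, which is what the drug blocks.

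Focal adhesion genes (35, median 0.11, or 0.041 without CTL1) were led by Tns3, a tensin, at 0.58 (SE 0.22) and by the sparsely counted integrin gene Itga8 at 1.01 (SE 0.43). In both genes the groups overlapped. The 36 genes of PI3K, Akt and mTOR had a median of 0.0089 (from -0.035 without IBR2), the 22 of cholesterol synthesis 0.0077 (from -0.061 without CTL2 to 0.066 without CTL1) and the 31 of cathepsins and lysosome 0.10 (0.16 without CTL2). Within them Igf1, the insulin-like growth factor, differed by 0.70 (SE 0.23) with CTL3 above IBR2. Pik3r3, a regulatory subunit of PI3K, differed by -0.42 (SE 0.18) and Gpnmb, a glycoprotein of lysosome-rich macrophages, by 0.92 (SE 0.28). The PI3K and cholesterol synthesis medians changed sign under some alternatives. Adipocyte genes had a median of -0.09, but 0.053 without IBR2, 0.043 without CTL2 and -0.14 without CTL1. Neural and Schwann cell genes had a median of -0.06, from -0.14 without CTL3 to -0.040 without CTL2.

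The 4 genotype libraries share no control with the drug comparison, so both could be set side by side in a fit of all 10 libraries. Csk itself was not lower in the libraries labelled KO, where its 2 libraries had 25.1 and 36.7 CPM and those of WT 18.5 and 18.03 CPM, so each direction below rests on the labels. In that fit 144 genes rose (1.03%) and 115 fell (0.819%) between the libraries labelled KO and WT. Of these 259 genes, 206 (79.5%) had the same sign in IBR minus CTL, against 65.9% of all genes. With the KO and WT labels turned, the shares are 20.5% and 33.98%. Turning the labels only flips each sign of KO minus WT, so these shares follow from those given first and do not test the labels. In the list medians, MHC class II stood at 1.39 with the drug and 3.71 with the knockout label, macrophages at 0.56 and 2.12, fibrillar matrix at 0.59 and 1.39, and interferon-stimulated genes at 0.73 and 0.91. Complex I stood at -0.32 and -0.72 and sarcomere genes at -0.17 and -0.82. The epicardial list stood at 0.72 with the drug and -0.32 with the label, and fibroblast identity at 0.59 and 0.51. Potassium channels, connexins and sodium channels stood at -0.65, -0.52 and -0.73 with the label but within 0.05 of 0 with the drug. The difference of list medians was not tested. Several of the label's medians lean on the library KO337. Taken alone against the mean log2(CPM + 0.5) of the WT libraries, KO26 and KO337 gave matrix medians of 0.078 and 2.21, macrophage medians of 0.71 and 2.66 and complex I medians of -0.41 and -1.08. Their epicardial medians were -0.075 and -0.88, so the negative epicardial value of the label leans on KO337. Col1a1 stood at 109 and 100 CPM in WT, 136 CPM in KO26 and 1727 CPM in KO337. The MHC class II medians were 3.65 and 3.32, so both KO libraries were high there.

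**Figure D5:**
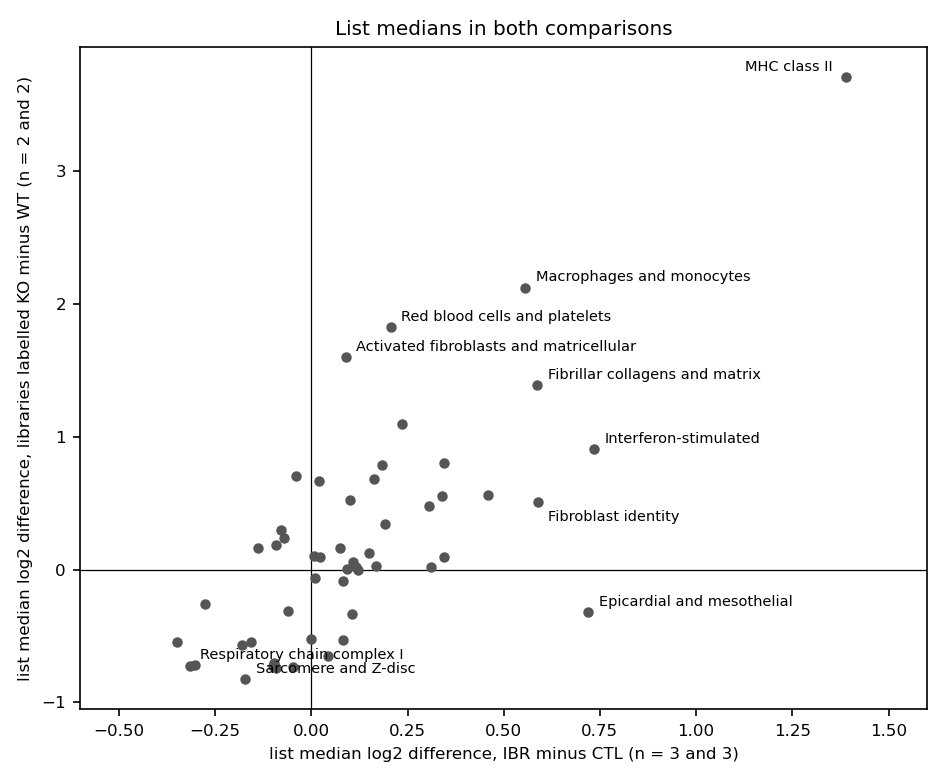
Median log2 difference of each gene list with at least 4 tested members in IBR minus CTL (x axis, 3 against 3 libraries) and in the libraries labelled KO minus WT (y axis, 2 against 2). MHC class II lies highest on both axes, at 1.39 and 3.71, and the epicardial list lies right of 0 and below it, at 0.72 and -0.32. The epicardial value on the y axis leans on the library KO337.

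The difference between both effects passed the test for 4 genes (0.0285%), among them Ccl24, Ccl11 and Lgr6. Other single genes show the same mixture. Myl9, which was lower with ibrutinib, differed by 0.55 (SE 0.18) between the libraries labelled KO and WT, and its difference of effects of -1.47 did not pass the test in edgeR (adjusted p = 0.132). Actc1 differed by -0.49 (SE 0.24), near its -0.54 with the drug, and Vegfa by -0.08 (SE 0.16). Sema3c, Enpp2, Cd163 and Mmp9, higher with ibrutinib, differed by -0.66 (SE 0.30), -0.90 (0.28), -0.67 (0.32) and -1.10 (0.29) with the label. None of these passed in edgeR, in KO minus WT (adjusted p of 0.071 or more) or in the difference of effects (0.23 or more). Sema3c stood at 84.5 and 86.2 CPM in WT, 74.5 CPM in KO26 and 33.5 CPM in KO337. Cd163 stood at 36.7 and 41.1 CPM, 33.0 CPM and 16.1 CPM in turn, so both lean on KO337. H2-Aa differed by 3.70 (SE 0.57).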

How the data were processed

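The deposited values were whole-number counts per gene, made by the authors for each library with STAR and HTSeq on mm9, with edgeR also named, per the submitters' processing notes. No versions or annotation are named there. The kit was directional per the labels' protocols, but the counting ignored strand per the names of the deposited files, so reads of overlapping or antisense genes, and of near-identical copies, cannot be told apart. The 5 rows of unassigned reads stayed out of library sizes and tests; in the 6 libraries 13.5% to 18.4% of records fell in no feature, 17.9% to 27.4% had no unique position and 3.39% to 3.99% were ambiguous. Of the Ensembl identifiers, 32860 (87.4%) had a symbol.

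Genes with at least 10 counts in at least 3 of the 6 libraries, 14036 in all, were tested across all genes with edgeR 4.0.16 in R 4.3.3 (TMM scaling, robust quasi-likelihood fit with group means, 4 residual degrees of freedom, Benjamini-Hochberg over all genes tested, threshold 0.05). The common biological coefficient of variation was 0.167. A standard error (SE) is the log2 difference divided by √F. The genotype libraries entered only a fit of all 10. Alternatives were DESeq2 1.42.0 size factors and Wald test, limma 3.58.1 voom, upper quartile scaling, no filter or a minimum of 50 counts, no robust shrinkage, a replicate block and leaving out each library. Scripts were tested on simulated data. Counts at an unadjusted p and of groups that do not overlap were added after seeing the data, as were the turned labels and the single KO libraries of the genotype comparison.

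The members and the 54 gene lists (1378 genes in the files, 1217 tested) were chosen with earlier results of these data known. Always named were Btk, Csk, Src, Nppa, Nppb, Myl7, Kcna5, Gja5, Cacna1c, Ryr2, Atp2a2, Col1a1, Col3a1, Postn, Il6 and Lyz2, and then, since no gene was called, up to 2 members of smallest p per list, some left out. A few genes the rule names, or that passed a test, are not reported here. Any other gene named was chosen after its values were seen. Promoter windows are RefSeq's on GRCm38.p6, of which 250 bases before each start were searched on both strands; no mm9 coordinates are given.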

Additional observations from a re-analysis of the deposited data

Results flagged for a closer look

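The drug and the knockout label differed in effect for 4 genes, by the test of (IBR minus CTL) minus (KO minus WT) in edgeR's quasi-likelihood fit of all 10 libraries, 0.0285% of the genes tested, with 1398 at an unadjusted p under 0.05. The adjusted p was 0.0429 for each of the 3 described here. Ccl11, the eosinophil chemokine eotaxin, had a difference of 3.85, with 3.85 to 4.29 CPM in CTL, 3.57 to 8.75 CPM in IBR, 13.3 and 16.4 CPM in WT and 1.77 and 1.36 CPM in the libraries labelled KO. Ccl24, eotaxin-2, had a difference of 2.56, with 2.69 to 3.50 CPM in CTL and 3.09 to 3.42 CPM in IBR, beside 9.81 and 11.1 CPM in WT and 1.95 and 1.92 CPM with the KO label. Lgr6, a receptor for R-spondins, had a difference of 1.57, with 159 to 196 CPM in CTL and 155 to 179 CPM in IBR, beside 207 and 192 CPM in WT and 63.1 and 61.0 CPM with the KO label. In each of these 3 genes the libraries labelled KO were lower than WT, while the drug differences lay between -0.11 (Lgr6) and 0.60 (Ccl11) in that fit. The count of such genes ran from 0 to 1468 when single libraries were left out, as given below.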

How the results depend on the processing

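The 0 genes called by edgeR stayed 0 in both directions with DESeq2 size factors, upper quartile scaling, the stricter filter, limma voom, no robust shrinkage and all 10 libraries. Without the filter 2 genes were called higher and 3 lower, and DESeq2's Wald test called 22 and 10. Leaving out single libraries gave 0 to 139 higher and 0 to 34 lower, the upper values without CTL3; CTL3 thus decides the count. At an unadjusted p under 0.05 the 812 higher and 503 lower genes became 397 to 1493 and 286 to 1178, again with the upper values without CTL3. With the replicate block 0 genes were called (smallest adjusted p 0.0708), with 1050 higher and 696 lower at an unadjusted p under 0.05; same-numbered CTL and IBR libraries correlated at 0.00836, 0.207 and 0.0465 in their deviations, so the numbers were not taken as a pairing, and not every library correlated best with its own number. The 4 differences of effect ran from 0 to 1468 without single libraries (1468 without KO26, 0 without WT338, CTL1, CTL3 or IBR3). Of 144 named genes 140 kept their sign throughout. Most had been picked from these data for a small p, separated groups or a DESeq2 call. That choice largely fixes the sign, so the count is no support for a difference. The genes that reversed, given next, were all among those always named. Csk reversed with limma voom (-0.00803), all 10 libraries (-0.020) and the replicate block (-0.0040), and ran from -0.10 to 0.059 without single libraries. Cacna1c reversed with all 10 libraries (-0.0040) and ran from -0.11 to 0.12, Gja5 from -0.42 to 0.20 and Atp2a2 from -0.12 to 0.0011. Of 795 list medians under alternatives, 27 moved by more than the spread between libraries. At these depths 3 counts in a library are 0.153 to 0.188 CPM before TMM scaling, which limits genes such as Btk and the T cell markers.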
